A study of Mus musculus with 6 samples.

Results

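The large cluster of replication-dependent histone genes on mouse chromosome 13, with its flanks, was followed on CpG island (CGI) microarrays as the window chr13:21300000-23800000 of the mm8 build, the build in which the arrays give their probe positions. Members were chosen by position alone: every CGI probe of the arrays whose start lies in the window was taken, and probes with starts 500 bp or less apart were joined into runs. The window held 174 probes in 51 of the 15525 runs of the whole array. Of these, 33 runs held 3 or more probes (147 probes in all) and were compared between the genotypes together with the other runs of that size, 13821 in all, and 18 runs held 1 or 2 probes. The runs are numbered 1 to 51 along the chromosome. The window itself was selected on earlier results of the same arrays, so its differences between the genotypes are given here as a description.

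Liver DNA came from 3 Mdr2-KO and 3 Mdr2-/+ males, labelled as of the FVB strain and all 12 months old, and each mouse had an array of its own. Mdr2, also named Abcb4, is the hepatocyte transporter that moves phosphatidylcholine into bile, and mice without it live with chronic cholestatic inflammation of the liver. By the methods of the study, the Mdr2-KO mice were FVB.129P2-Abcb4tm1Bor, and the heterozygous controls came from crosses of these with FVB/NJ, so that they carried 1 mutant allele and no wild-type mouse was among them. In methylated DNA immunoprecipitation (MeDIP), an antibody against methylated cytosine pulls fragments out of sheared DNA. Cy5 marked the precipitated DNA and Cy3 the total DNA taken from that liver before precipitation. The level used below is log2 of the MeDIP signal over the input signal, minus the median of that array. On this scale 0 is the median CGI probe, and a higher level stands for more methylation only where the spots are above background. The probe at 22050494, with no spot above background in either channel, still read 0.79, 0.46 and 0.37 in Mdr2-/+. In Mdr2-KO it read 0.13, 0.08 and 0.15, a difference of -0.42 without a spot above background. The DNA was that of whole liver, so that a change in the share of a cell type and a change within cells cannot be told apart.

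Histone genes of this kind supply the core histones H2A, H2B, H3 and H4 and the linker histone H1 that package new DNA, and they are transcribed mainly in S phase. They have no introns, their messages end in a stem-loop instead of a poly(A) tail, and their copies lie close together. Most copies within a core histone class encode nearly identical proteins. In most somatic tissues, promoters that lie in CGIs carry little methylation. H2ac1 and H2bc1, at the end of the cluster, encode testis-specific forms of H2A and H2B. The array files used here give positions and no gene names, and these mm8 positions could not be set against the RefSeq annotation used here, which is of the GRCm38 build, so no run below is assigned to a gene. That the window is the histone gene cluster is likewise known from its position and could not be checked in the files. In the gene order of RefSeq, chromosome 13 held 55 genes with symbols of this kind, of which 6 were H1, 15 H2A, 14 H2B, 9 H3 and 11 H4 genes. Among the H2A genes, H2ac14 and H2ac5-ps were annotated as pseudogenes. They lay in 3 groups, namely 18 genes from H2bc13 to H2ac24, 5 genes from H2ac12 to H2bc11, and 32 genes from H4c8 to H2ac1.

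To show how much substrate the antibody could find in such promoters, the 250 bases before the start of 1 gene of each class are printed from RefSeq, that whose symbol comes first in alphabetical order among those listed, 5′ to 3′ on the strand of the gene, with each CG dinucleotide in capitals.
H1f1, GRCm38 chr13:23763418-23763667, plus strand: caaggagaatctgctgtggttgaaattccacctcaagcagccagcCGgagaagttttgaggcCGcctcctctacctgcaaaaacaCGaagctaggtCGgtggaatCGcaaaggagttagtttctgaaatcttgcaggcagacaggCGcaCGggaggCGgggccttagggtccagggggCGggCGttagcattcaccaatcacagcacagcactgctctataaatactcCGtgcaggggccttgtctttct
H2ac1, GRCm38 chr13:23934187-23934436, plus strand: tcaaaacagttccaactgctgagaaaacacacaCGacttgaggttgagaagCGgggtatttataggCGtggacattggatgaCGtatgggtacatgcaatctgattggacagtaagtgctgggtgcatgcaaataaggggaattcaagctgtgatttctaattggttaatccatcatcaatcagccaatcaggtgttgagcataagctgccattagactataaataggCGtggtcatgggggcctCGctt
H2bc1, GRCm38 chr13:23934157-23934406, minus strand: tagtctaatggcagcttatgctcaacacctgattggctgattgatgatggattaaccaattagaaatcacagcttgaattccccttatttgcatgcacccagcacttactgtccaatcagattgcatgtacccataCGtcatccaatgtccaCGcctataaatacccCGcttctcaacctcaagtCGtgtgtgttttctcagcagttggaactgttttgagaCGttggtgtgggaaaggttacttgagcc
H3c10, GRCm38 chr13:21717378-21717627, plus strand: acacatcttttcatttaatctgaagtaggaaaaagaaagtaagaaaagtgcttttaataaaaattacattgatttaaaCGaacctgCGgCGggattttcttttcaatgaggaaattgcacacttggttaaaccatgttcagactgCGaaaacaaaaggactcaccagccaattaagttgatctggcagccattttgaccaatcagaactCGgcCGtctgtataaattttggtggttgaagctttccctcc
H4c1, GRCm38 chr13:23761250-23761499, minus strand: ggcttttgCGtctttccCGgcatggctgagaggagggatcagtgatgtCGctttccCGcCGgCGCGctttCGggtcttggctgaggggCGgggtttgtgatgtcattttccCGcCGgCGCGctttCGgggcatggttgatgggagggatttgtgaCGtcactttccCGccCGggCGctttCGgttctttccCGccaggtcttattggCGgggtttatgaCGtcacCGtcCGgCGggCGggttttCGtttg
H4c1 held 27 CG dinucleotides in these 250 bases, a number reached by 8.56% of all 32851 promoters of the table. H1f1 held 11, H2ac1 and H3c10 held 6 each, and H2bc1 held 5. The windows of H2ac1 and H2bc1 overlap, since these genes start close together on opposite strands. Over the 51 promoters listed for 50 of the 55 histone genes, the median was 9 CG (quartiles 6 and 12), against 6 (quartiles 2 and 16) over all promoters. Histone promoters were poorer in G and C, with a median of 44.4% against 52.4%, and the median ratio of observed CG to that expected from base composition was 0.745, against 0.374 over all promoters. The CCAAT box, searched as CCAAT on either strand, was present in 84.3% of the histone promoters and in 33.9% of all promoters. By class, the median was 11 CG for H1, 10 for H4, 7.5 for H2B, 7 for H2A and 6 for H3, and single histone promoters held between 2 and 27.

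The probes of the window were dim in both channels. On each array, the median MeDIP signal of the window lay between 118 and 193 intensity units, against 927 to 1206 over all CGI probes. The median input signal of the window lay between 291 and 361 units, against 1170 to 1436. In the 33 runs, 43.4% of the MeDIP spots were well above background as the scanner software calls it, against 82.2% over all runs, and 62.1% of the input spots, against 89.8%. Total DNA and precipitated DNA were thus both dim here. In 9 of the 33 runs no MeDIP spot was above background on any Mdr2-KO array, while 12 of the 13788 runs elsewhere shared this. For the Mdr2-/+ arrays the counts were 5 of the 33 and 26 of the 13788, and 4 of the 33 had none in either genotype. The probes were also longer than usual: 23.6% had 60 bases, the greatest length in the window, against 3.10% over the array, and the median length was 50 bases against 45.

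In the livers of both genotypes, the runs of the cluster lay around or below the array median, and none of the 33 reached a level of 1 in Mdr2-/+, which 14.8% of all runs did. The median level of the 33 runs was -0.22 in Mdr2-/+ and -0.68 in Mdr2-KO, against -0.11 and -0.13 over all runs. Per array, the median over the 33 runs was -0.33, -0.13 and -0.28 in Mdr2-/+ replicates 1 to 3, and -0.58, -0.60 and -0.49 in Mdr2-KO replicates 1 to 3. All 3 Mdr2-KO arrays were therefore below all 3 Mdr2-/+ arrays, while over all runs the 6 arrays lay within -0.14 and -0.08. These levels depend on the handling of dim spots: with local background fitted by normexp instead, the medians were 0.28 and 0.02, and with probes above background in both channels on all 6 arrays, which left 10 runs, they were 0.51 in both genotypes.

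Among the 33 runs of 3 or more probes, the highest levels were found in blocks 1 and 3 of the 4 described below. Run 4 (chr13:21475595-21476178, 5 probes) had the highest Mdr2-/+ level, with 0.75, 0.62 and 0.67 in Mdr2-/+ and 0.49, 1.05 and 0.66 in Mdr2-KO. Run 18 (chr13:22013259-22014685, 9 probes) had 0.65, 0.45 and 0.62 against 0.42, 0.55 and 0.75, and run 17 (chr13:21988588-21989342, 8 probes) had 0.33, 0.55 and 0.61 against 0.21, 0.32 and 0.65. In all 3 runs the genotypes overlapped. The lowest level among the 33 runs was that of run 39 (chr13:23592375-23592850, 5 probes), with -1.48, -1.35 and -1.26 in Mdr2-/+ and -1.39, -1.39 and -1.51 in Mdr2-KO. Run 30 (chr13:23542631-23543368, 4 probes) followed with -0.77, -1.78 and -1.37 against -1.79, -1.61 and -1.63, and run 9 (chr13:21729255-21729568, 4 probes) with -1.16, -0.78 and -1.41 against -1.12, -1.13 and -1.42. In run 39, 1 MeDIP spot of 30 was above background, so this is a level at the limit of detection. Runs 30 and 9 were near that limit as well, with 8.33% and 12.5% of their MeDIP spots above background.

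**Figure D1:**
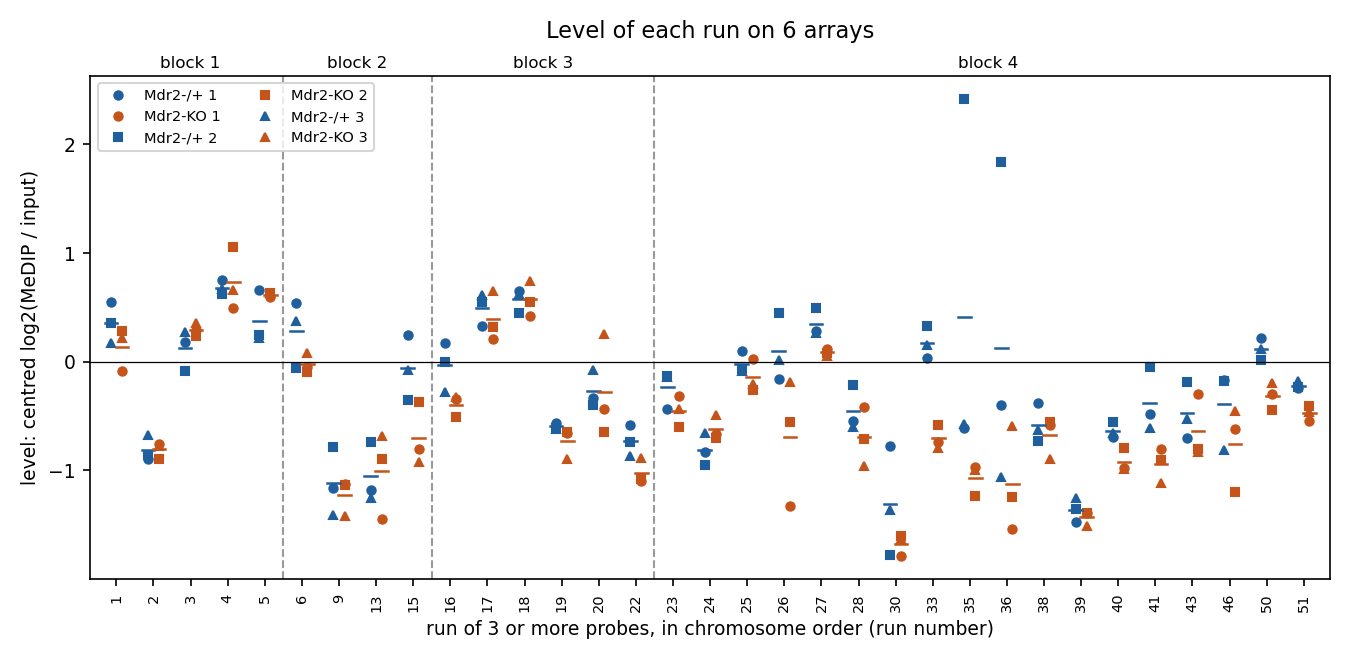
Level (centred log2 of MeDIP over input, y axis) of the 33 runs of 3 or more probes in chromosome order (x axis, run number) on the 6 arrays. Points are arrays, short lines are genotype means, dashed lines part the 4 blocks. Mdr2-/+ replicate 2 stands at 2.42 in run 35 and 1.84 in run 36, far above the other 5 arrays.

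The level of the histone cluster runs was lower in Mdr2-KO than in Mdr2-/+ in 27 of the 33 runs (81.8%), whereas 49.6% of all runs were lower. The median difference, Mdr2-KO minus Mdr2-/+, was -0.22 on the log2 scale (quartiles -0.37 and -0.07), against 0.0031 over all runs and -0.03 over the other 482 runs of chromosome 13. In 12 of the 33 runs (36.4%) all Mdr2-KO arrays were below all Mdr2-/+ arrays, a pattern that 10.8% of all runs showed. In none of the 33 runs were they all above, which 15.9% of all runs showed. With limma across the 13821 runs and Benjamini-Hochberg adjustment, 1 run of the window was called lower, against 0.217% of all runs, and 0 were called higher, against 4.28% of all runs. At an unadjusted p under 0.05, 9 of the 33 runs were lower and 0 higher, against 761 lower and 2049 higher of all 13821. With only probes above background in both channels on all 6 arrays, 0 of the 10 runs left were lower and 2 higher at that p. Among the 174 single probes, 128 were lower in Mdr2-KO, 0 were called in either direction against 2.01% of all probes, and 23 lower and 4 higher probes had an unadjusted p under 0.05, against 4375 lower and 10702 higher of all 88646. Loess within arrays, which removes a trend of the ratio with brightness, left a median of -0.12 and 20 of 33 runs lower (60.6%, against 51.7% of all runs).

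Between the 2 channels, the difference lay mainly in the MeDIP signal. It cannot be placed in precipitated DNA throughout, since probes with no spot above background in either channel differed as well. Most of these probes were lower in Mdr2-KO. As examples picked after their values were seen, the probe at 23539339 differed by -0.53 and that at 23769274 by -0.63. The probe at 22048414, among the few that were higher, differed by 0.80. The MeDIP signal alone, scaled in the same way, differed by a median of -0.25 log2 units over the 33 runs, against -0.08 over all runs. It was lower in Mdr2-KO in 28 of the 33 runs, against 8559 of all 13821, and 2 were called, against 478. The input signal differed by a median of 0.02, against -0.02 over all runs. It was lower in 15 of the 33 runs, against 8233 of all 13821, and 0 were called, against 1.

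**Figure D2:**
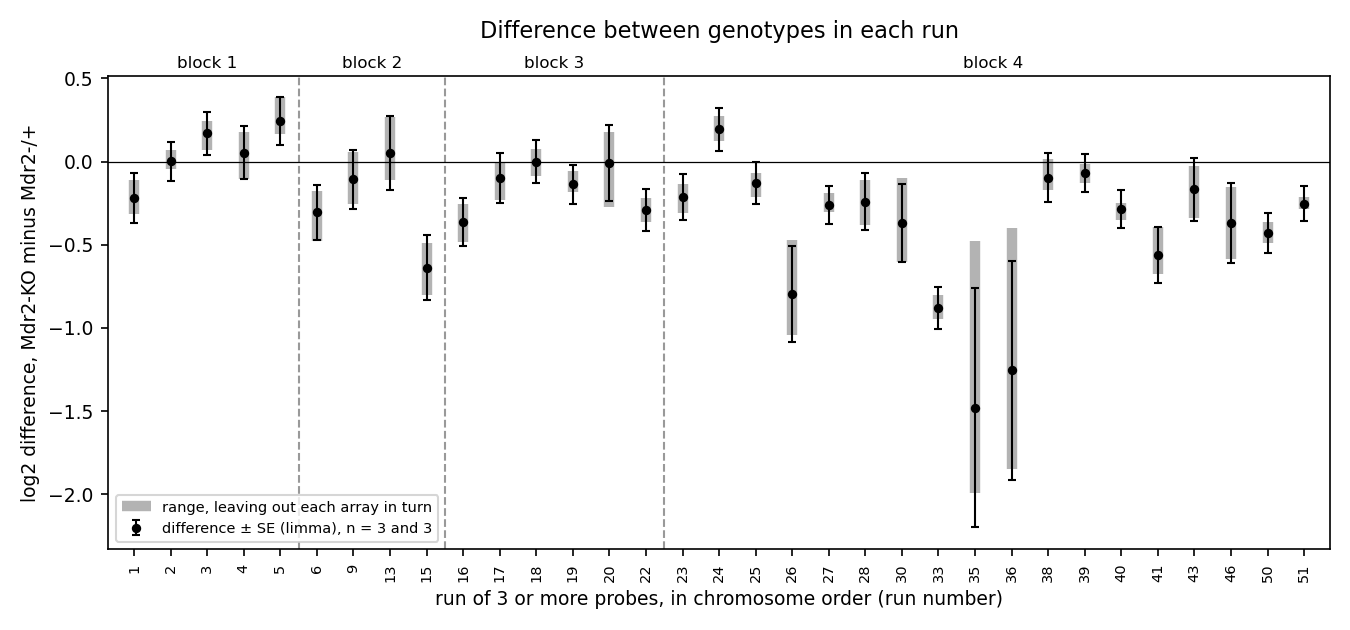
Difference in level, Mdr2-KO minus Mdr2-/+ on the log2 scale (y axis), for the 33 runs in chromosome order (x axis). Points are differences from 3 and 3 arrays with limma's SE, and grey bars give the range of the difference when each array is left out in turn. Runs 35 and 36 have the widest bars, and run 33 a narrow one.

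Along the window the difference was uneven. Gaps of over 100 kb part the runs into 4 blocks, with the largest gap, of 1317277 bp, between the third and the fourth. Block 1, the 5 runs nearest the start of the window, had a median difference of 0.05 with 1 of 5 runs lower, and its MeDIP spots were above background in 72.0% of cases. Block 2, with 4 runs of 3 or more probes, had a median of -0.21 and 3 of 4 runs lower, but only 4.76% of its MeDIP spots were above background. Block 3 had a median of -0.12 with all 6 runs lower, and 49.0% of its MeDIP spots were above background. Block 4, the largest, had a median of -0.27 with 17 of 18 runs lower, and 40.1% of its MeDIP spots were above background. The 18 runs of 1 or 2 probes, of which 10 in each genotype had no MeDIP spot above background, were lower in 16 cases with a median of -0.38. None of them was called in the fit on runs of every size. That fit called 24 lower and 533 higher of 15524 runs, of which 49.1% were lower.

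The difference moved with the share of MeDIP spots above background, in the window and outside it. Among the runs elsewhere with under 25% of MeDIP spots above background (64 runs), the median difference was -0.21 and 84.4% were lower. At 25% to 50% (493 runs) the median was -0.15, at 50% to 75% (3266 runs) -0.09, and at 75% or more (9965 runs) 0.05. In the same steps, the 14, 4, 9 and 6 runs of the window had medians of -0.34, -0.23, -0.25 and 0.03. In the brightest step, the window and the other runs thus had almost the same median, and 3 of the 6 window runs were lower. In the 3 dimmer steps the window lay further below 0 than the other runs of the same step. These steps do not match the runs in brightness. Under 50%, the window runs had 16.9% of their MeDIP spots and 44.7% of their input spots above background. The runs elsewhere under 50% had 37.5% and 68.8%. The part of the dim signal in the difference was not tested further. When only probes above background in both channels on all 6 arrays were kept, the 10 runs left had a median difference of -0.04, of which 7 were lower.

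**Figure D3:**
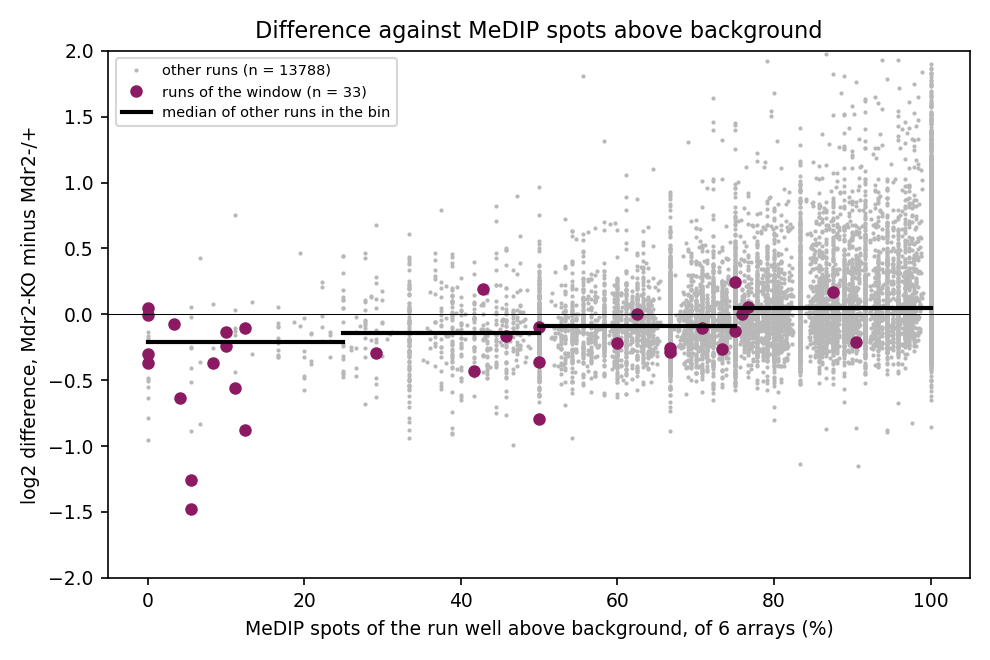
Difference in level, Mdr2-KO minus Mdr2-/+ (y axis, log2), against the share of a run's MeDIP spots well above background on the 6 arrays (x axis, percent), for the 33 runs of the window and the 13788 other runs. Black lines are medians of the other runs in 4 steps, from -0.21 in the dimmest to 0.05 in the brightest. 16 other runs lie beyond the y axis.

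Run 33 (chr13:23562311-23563110, 4 probes, block 4) was the only run of the window past the adjusted threshold. Its level was 0.04, 0.33 and 0.15 in Mdr2-/+ and -0.74, -0.58 and -0.79 in Mdr2-KO. The genotypes did not overlap, and the 3 values of each lay close together. The difference was -0.88 (SE 0.13, n = 3 and 3; adjusted p = 0.014, limma), and it stayed between -0.95 and -0.80 when each array was left out in turn, although the adjusted p rose to 0.059 without Mdr2-/+ replicate 2, to 0.065 without Mdr2-/+ replicate 3 and to 0.083 without Mdr2-KO replicate 1. On the slide that held replicate 1 of both genotypes, the difference was -0.77. The probes behind it were dim: 3 of 12 MeDIP spots were above background in Mdr2-/+ and 0 of 12 in Mdr2-KO. The third probe (start 23562589) had MeDIP signals of 228, 594 and 274 units in Mdr2-/+ and 117, 135 and 138 in Mdr2-KO, with input signals of 226 to 300 units. The first and second probes had MeDIP signals of 44.8 to 56.9 units in Mdr2-/+ and 37.1 to 75.8 in Mdr2-KO, none above background, while the lowest signal called above background was 167 to 259 units, depending on the array. With the dim Mdr2-KO spots raised to that limit, the mean Mdr2-KO level of the run would be 0.65, above the Mdr2-/+ mean of 0.17. That Mdr2-/+ mean also rests mostly on dim spots, and would be 1.38 with them raised in the same way. No fold can therefore be given for the run. With normexp on the local background the difference was -0.34 (adjusted p = 0.38), and with the slide as a fixed block -0.77 (adjusted p = 0.20).

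The largest differences of the 33 runs, in runs 35 and 36, were carried by 1 array. Run 35 (chr13:23578568-23578839, 3 probes) had levels of -0.61, 2.42 and -0.58 in Mdr2-/+ and -0.97, -1.24 and -0.99 in Mdr2-KO. Its difference of -1.48 (SE 0.72, adjusted p = 0.30, limma) shrank to -0.48 without Mdr2-/+ replicate 2. A single spot made the high value: the probe at 23578780 had a MeDIP signal of 8603 units on Mdr2-/+ replicate 2 and 43.6 to 68.2 units on the other 5 arrays, while its input signal was 49.6 units on that array and not above background on any of the 6. Run 36 (chr13:23581660-23581920, 3 probes), 3 kb further on, had levels of -0.39, 1.84 and -1.06 in Mdr2-/+ and -1.54, -1.25 and -0.59 in Mdr2-KO, and its difference of -1.25 (SE 0.66, adjusted p = 0.34) shrank to -0.40 without the same array. Here the probe at 23581660 had a MeDIP signal of 3692 units on Mdr2-/+ replicate 2 and 105 to 190 units on the others. These were the only 2 runs of the window in which 1 array stood over 2 log2 units above all the others, and Mdr2-/+ replicate 2 did so in 5 runs of the 13821. Without these 2 probes, the difference was -0.78 (adjusted p = 0.17) in run 35 and -1.07 (adjusted p = 0.064) in run 36, each resting on 2 probes with no MeDIP spot above background.

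**Figure D4:**
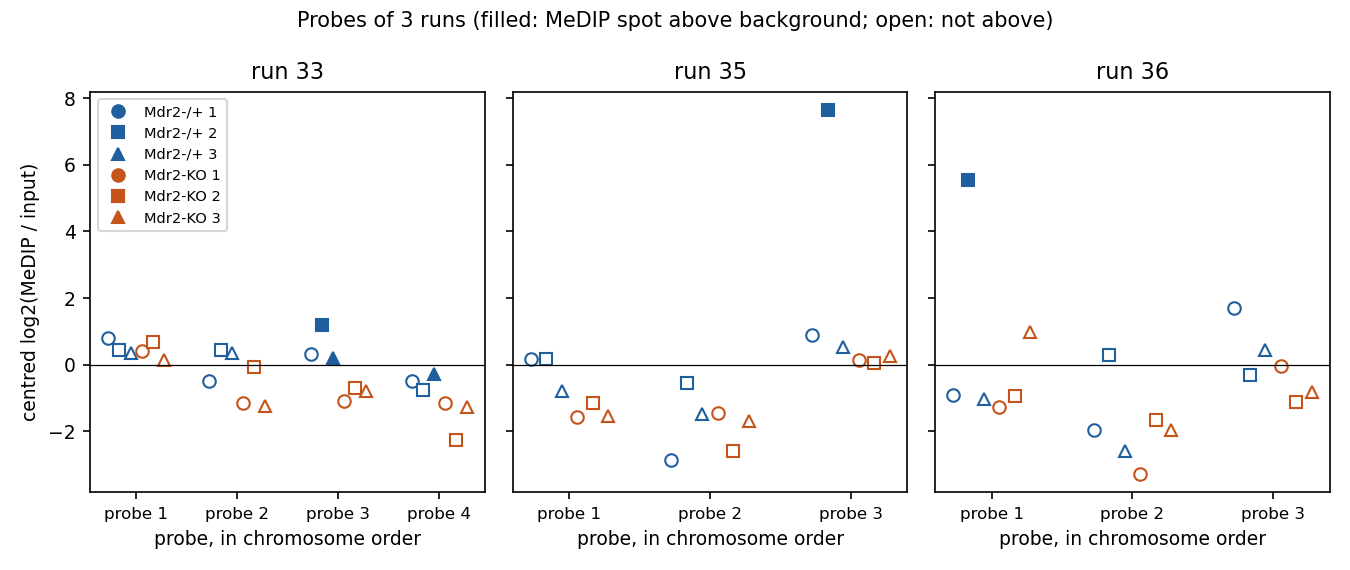
Centred log2 of MeDIP over input (y axis) of each probe of runs 33, 35 and 36 (x axis, in chromosome order) on the 6 arrays. Filled points are MeDIP spots well above background and open points are not. The values of 7.64 in run 35 and 5.55 in run 36 belong to Mdr2-/+ replicate 2, and in run 33 the filled points are 3 Mdr2-/+ spots.

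The next largest falls among the 33 runs were those of runs 26 and 15. Run 26 (chr13:23453099-23453405, 3 probes) had -0.16, 0.45 and 0.02 in Mdr2-/+ and -1.33, -0.55 and -0.19 in Mdr2-KO. The genotypes did not overlap, but the difference of -0.79 (SE 0.29, adjusted p = 0.17) shrank to -0.47 without Mdr2-KO replicate 1. Run 15 (chr13:21794248-21794939, 4 probes) had 0.24, -0.35 and -0.08 against -0.81, -0.38 and -0.92, with a difference of -0.64 (SE 0.20, adjusted p = 0.11), and 1 of its 24 MeDIP spots was above background.

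Of the 12 runs whose genotypes did not overlap, 5 had 50% or more of their MeDIP spots above background. The window held 15 runs with such spots, so 33.3% did not overlap, against 10.3% of the 13231 such runs elsewhere. In 0 of the 15 were all Mdr2-KO arrays above, against 16.5% elsewhere. Besides run 26, the 5 were run 16 with a difference of -0.36, run 27 with -0.26, run 40 with -0.29 and run 51 with -0.25. They were chosen after their values were seen, and none was past the adjusted threshold. Run 27 (chr13:23471580-23471970, 5 probes) had 0.28, 0.49 and 0.26 in Mdr2-/+ and 0.12, 0.08 and 0.06 in Mdr2-KO, with 22 of 30 MeDIP spots above background. Run 50 (chr13:23768269-23769891, 8 probes), also named after its values were seen, had 0.22, 0.02 and 0.12 against -0.30, -0.45 and -0.20. Its difference of -0.43 (SE 0.12, adjusted p = 0.091) lay between -0.49 and -0.36 whichever array was left out, and 20 of its 48 MeDIP spots were above background, equally in both genotypes.

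No run of the window was called higher in Mdr2-KO with all 6 arrays weighted equally, and 1, run 5, was called with array weights. The largest rise among the 33 runs was that of run 5 (chr13:21538135-21538625, 4 probes) in block 1, with 0.66, 0.24 and 0.22 in Mdr2-/+ and 0.59, 0.63 and 0.63 in Mdr2-KO, a difference of 0.24 (SE 0.14, adjusted p = 0.40). Without Mdr2-/+ replicate 1, the array of the high control value, it was 0.39 with an adjusted p of 0.035. Run 24 (chr13:23403263-23404136, 7 probes) was the only run of block 4 with a positive difference, with -0.83, -0.95 and -0.65 against -0.67, -0.70 and -0.49, a difference of 0.19 (SE 0.13, adjusted p = 0.45). Run 3 (chr13:21448129-21448527, 4 probes) differed by 0.17, and runs 4 and 13 by 0.05 each.

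Single arrays carried many of these differences in size, but few in direction. Whichever array was left out, 23 of the 33 runs stayed lower and 3 stayed higher, 7 turned sign, and 24 moved by over 1.5 times. The median difference over the 33 runs lay between -0.25 and -0.17 in these 6 fits. Between the 2 arrays of replicate 1, which shared a slide, 25 of 33 runs were lower in Mdr2-KO (75.8%, against 54.7% of all runs), with a median of -0.26 against -0.04 over all runs. The other 4 arrays lay on 2 slides of 1 genotype each, so that for them slide and genotype cannot be told apart.

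At the edges of the window, the first run inside (run 1, start 21370143) differed by -0.22 and the last (run 51, start 23771066) by -0.25. Just outside, the runs starting at 21187372 and 21207858 differed by -0.21 and -0.24. On the far side, a run of 9 probes starting at 24287825 differed by -1.15 and a single probe at 24646363 by 4.64, both past the end of the window and not counted in it.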

How the data were processed

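MeDIP and input DNA of 6 livers were hybridised to 2-colour CpG island arrays. The deposited scanner files hold intensities that the authors obtained with Agilent Feature Extraction (version 8.5.1.1 in the submitters' processing notes, 10.5.1.1 in the file headers), background-subtracted and dye-normalized within each array but not between arrays, with mm8 positions. The deposited value table, a score of the authors with its scale not given in the sources used here, served as an alternative at the level of genotypes. Its Mdr2-/+ columns 1, 2 and 3 correlated best with the scanner arrays of Mdr2-/+ replicates 2, 3 and 1, and 9 runs of the window had 3 or more probes with all values.

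The log2 ratio of processed signals was centred on the median of each array over 88646 probes without an outlier flag (0 of the 174 window probes had one). Probes whose starts were separated by no more than 500 bp formed a run, whose values were averaged over their probes. Runs of 3 or more probes were tested with limma 3.58.1 (R 4.3.3) across the array, with genotype as the only term, Benjamini-Hochberg adjustment and a threshold of 0.05. The same fit was made on single probes and on each channel, and the fit was tested on simulated data. The number of arrays limits the precision. Arrays correlated at 0.891 to 0.964 over probes. Runs named in the text were the 5 largest rises and falls, the 3 highest and 3 lowest Mdr2-/+ levels and any run past the threshold. Promoters came from the RefSeq table of GRCm38, by symbol, and among the H3 genes with an entry H3c10 comes first in alphabetical order, before H3c2. The members and lists were chosen with earlier results of these data known. Figures used Python 3 with matplotlib. Alternatives were other background corrections, scalings, filters, run definitions, blocks, weights and single arrays left out.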

Additional observations from a re-analysis of the deposited data

How the results depend on the processing

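Of the 257 alternative values of named runs, 217 kept their direction and their side of the threshold, 29 turned sign, 6 passed the threshold newly (runs 5, 15 and 26 with array weights, run 5 without Mdr2-/+ replicate 1, run 15 with quantile scaling and run 35 with medians over probes) and 5 no longer passed it, all of run 33. In place of 1 run, 0 were called lower with normexp, the authors' deposited values, probes above background on all arrays, a 250 bp limit, slide as a fixed block, the methods' t-test after adjustment (7 lower and 0 higher at an unadjusted p under 0.05, against 841 and 1596 of all runs) and only runs with 50% of MeDIP spots above background, an alternative chosen after seeing the data, as was leaving out the 2 bright probes. 3 were called lower with quantile scaling, 2 with division by the SD of each array, 2 with medians over probes and 6 with array weights, which called 1 higher. Leaving out each array gave 0 to 2 lower and 0 to 1 higher, against 1 to 330 and 33 to 2642 of all runs. Medians over probes called 31 lower and 461 higher over all runs. The authors' deposited values called 322 and 1388 of 10519 runs, and probes above background on all arrays 24 and 824 of 10958. A 250 bp limit called 29 and 680 of 14487 runs, and runs with 50% above background 21 and 625 of 13246. Over all runs, array weights called 569 lower and 2562 higher in place of 30 and 591, quantile scaling 380 and 990, division by the SD 146 and 1270, slide as a fixed block 4 and 7, normexp 0 and 0, and leaving out Mdr2-/+ replicate 1 called 330 and 2642. The median difference was -0.12 with loess, -0.043 with probes above background on all arrays and -0.13 in runs with 50% above background. Single probes called lower were 1 instead of 0 with probes above background on all arrays. The share called over all probes was not counted in that fit, so this 1 cannot be set against it.

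The median Mdr2-/+ level was 0.28 with normexp, 3.4e-05 with loess, 0.51 with probes above background on all arrays, -0.026 with a 250 bp limit, -0.10 with medians over probes and 0.10 in runs with 50% above background. The Mdr2-KO level was in the same order 0.024, -0.25, 0.51, -0.46, -0.46 and -0.14, and -0.65 to -0.57 with an Mdr2-KO array left out (-0.68 with an Mdr2-/+ array left out). The sign turned with normexp in runs 4 (-0.0051), 13 (-0.33), 17 (0.15), 18 (0.088) and 24 (-0.12), with loess in runs 9 (0.092), 18 (0.037) and 39 (0.078), with quantile scaling in runs 4 (-0.048) and 13 (-0.030), with slide as a fixed block in runs 4 (-0.26), 5 (-0.072), 9 (0.036), 13 (-0.26) and 39 (0.084), with array weights in runs 4 (-0.028), 9 (0.019) and 13 (-0.0082), and with medians over probes in run 3 (-0.011). With an array left out, run 4 ranged from -0.11 to 0.18, run 9 from -0.25 to 0.059, run 13 from -0.11 to 0.27 and run 18 from -0.087 to 0.075. The cause of these moves was not tested. Same-numbered arrays deviated together with correlations of 0.11, -0.09 and 0.12 over all runs, so the numbers were not taken as pairs. With the replicate block, 1 run of the window was called lower and 0 higher, against 17 and 477 of all 13821 runs. The median difference stayed at -0.22, and run 33 had an adjusted p of 0.026 (limma). Dim spots limit the window: a run with no MeDIP spot above background has only a bound in that genotype.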
